A study of Homo sapiens with 8 samples.

Results

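Kinesins are motor proteins that use ATP to walk along microtubules or to take microtubules apart. One branch builds the mitotic spindle, moves chromosomes and completes cytokinesis, and its genes are known to be read mainly in G2 and mitosis. Another branch carries vesicles, mitochondria and other cargo through the cytoplasm of resting and dividing cells alike, with light chains and adaptors that hold the cargo. The kinesin genes described here were chosen by symbol, as KIF followed by a number and at most 1 letter A to C, or KIFC1 to KIFC3. Of 35394 genes in the count table, 40 met that rule. By textbook role, 14 were placed among mitotic kinesins, 15 among transport kinesins and 11 in a mixed group of cilium, signalling and less studied kinesins.

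The cells were HCT116, a human colorectal cancer line of epithelial type whose genotype is labelled as a ras mutation. In 4 libraries they had received PZH (Pien Tze Huang, a herbal and animal formula of Chinese medicine) for 24 h, and in 4 libraries the solvent DMSO. The sources used here give no dose, and nothing says that replicates were separate cultures, so p-values measure the spread between these libraries, which may be technical. Libraries held 18144117 to 19917571 counts of poly(A) RNA, and 3 counts corresponded to 0.151 to 0.165 CPM. Levels are counts scaled to CPM with TMM factors, which are meant to correct for differences in library composition. These factors were 1.09 to 1.10 in DMSO and 0.896 to 0.949 in PZH. They thus differed by group, and the point of no change depends on them. Epithelial genes were present, with EPCAM at 277 CPM in DMSO and 299 in PZH, KRT8 at 1877 and 983, and CDH1 at 79.2 and 247. Of the intestinal markers, CDX2 stood at 13.3 and 9.16 CPM, while CDX1 and VIL1 had 0 and 5 counts over all libraries. Most of the tested transcriptome differed between the PZH and the DMSO libraries. In edgeR's quasi-likelihood F test, adjusted after Benjamini and Hochberg at 0.05, 80.3% of 15006 tested genes differed, 39.3% being higher and 40.9% lower in PZH, so each count of kinesins is to be read beside these shares. Of the 36 kinesins that passed the low-count filter, 10 were higher, 24 lower and 2 not called. Groups did not overlap for 33 of the 36, which held for 75.0% of genes tested.

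Kinesin promoters are shown first, as a description. Any part of their letters in the response to PZH was not tested. Genes of G2 and mitosis are known for a CHR element close to the transcript start, often a short distance from a CCAAT box. RefSeq promoter windows (GRCh38.p14, from 250 bases before the start to the 50 bases that follow) were at hand for 32 of the 40 kinesins, and were searched on both strands, a gene counting as a match if any of its windows held the letters. The CHR letters were TTTGAA or TTCGAA, the CCAAT box was read as CCAAT, and the E2F letters were TTCCCGC or TTGGCGC. The 100 bases before the start are printed 5′ to 3′ on the strand of the gene, with CHR and CCAAT matches on either strand in capitals. The first 4 are the mitotic kinesins with the smallest p that hold a CHR match. KIF20A, the kinesin with the steepest fall, and KIF2A, the mitotic kinesin that did not fall, were added after their values were seen.
KIF11 (chr10:92593030-92593129, + strand): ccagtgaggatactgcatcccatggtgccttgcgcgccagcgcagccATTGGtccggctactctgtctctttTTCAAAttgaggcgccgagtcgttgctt
KIF23 (chr15:69414249-69414348, + strand): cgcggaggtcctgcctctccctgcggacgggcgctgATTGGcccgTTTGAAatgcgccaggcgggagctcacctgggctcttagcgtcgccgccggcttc
KIF4A (chrX:70290004-70290103, + strand): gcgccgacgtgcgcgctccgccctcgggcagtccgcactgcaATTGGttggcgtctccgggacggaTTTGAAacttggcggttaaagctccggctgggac
KIF18A (chr11:28108157-28108256, - strand): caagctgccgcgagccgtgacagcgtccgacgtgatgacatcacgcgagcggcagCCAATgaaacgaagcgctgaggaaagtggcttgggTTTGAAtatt
KIF20A (chr5:138179012-138179111, + strand): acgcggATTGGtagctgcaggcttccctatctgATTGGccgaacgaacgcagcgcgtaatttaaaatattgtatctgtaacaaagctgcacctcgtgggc
KIF2A (chr5:62306106-62306205, + strand): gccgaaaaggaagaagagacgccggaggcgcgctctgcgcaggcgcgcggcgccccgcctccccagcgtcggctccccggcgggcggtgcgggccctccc

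Among mitotic kinesins with a window, 11 of 14 held the CHR letters (78.6%) and 11 of 14 held CCAAT. Over all 27305 genes with a window, 19.5% held CHR letters and 39.7% held CCAAT. Both stood in a single window for 10 of the 14 mitotic kinesins and for 7.85% of all genes. Of the 11 mitotic kinesins with CHR letters, 6 had them 10 to 55 bases before the start and 5 within the first 31 bases after it. Among transport kinesins 1 of 11 held CHR letters (9.09%), namely KIF5B, where they stood 140 bases before the start. In the mixed group 1 of 7 held them (14.3%), namely KIF24. E2F letters stood in 3 of 14 mitotic and 3 of 11 transport windows, beside 11% of all genes. KIF2A, KIF2C and KIF20A held no CHR letters in this window. These are matches of letters, given as a description of the windows.

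**Figure D1:**
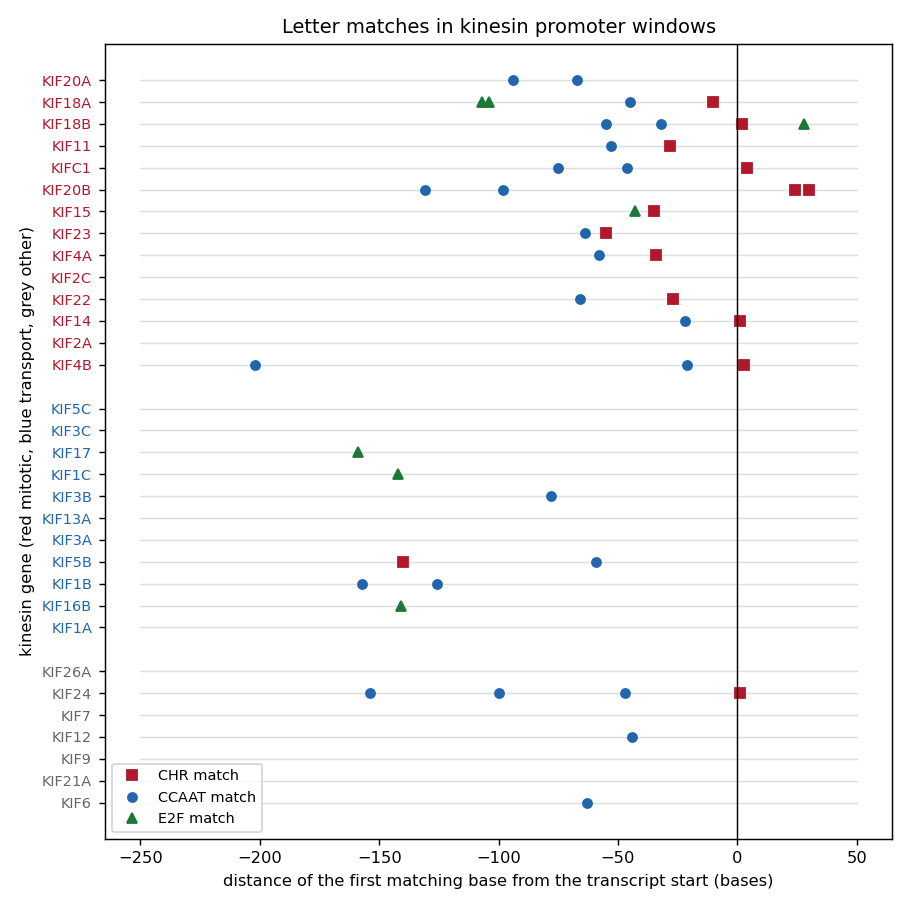
Distance in bases from the transcript start (x axis) of each CHR, CCAAT and E2F letter match in the first RefSeq window of each kinesin gene, 1 line per gene, with mitotic genes on top. CHR squares of mitotic kinesins gather between 55 bases before the start and the first bases after it, and the only other 2 squares belong to KIF5B and KIF24.

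The mitotic kinesins fell with PZH. Of 14 in the table, 13 passed the low-count filter, and 12 of these were lower and 1 higher. All 12 fell at least 3-fold, which 9.80% of tested genes did. In these 12 genes every PZH library stood below every DMSO library, which held for 38.4% of genes tested. The median log2 fold change of the 13 was -2.12, against -0.02 for all genes tested. Since this is RNA of whole cultures, fewer cells in mitosis and less of these transcripts in each cell cannot be told apart.

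**Figure D2:**
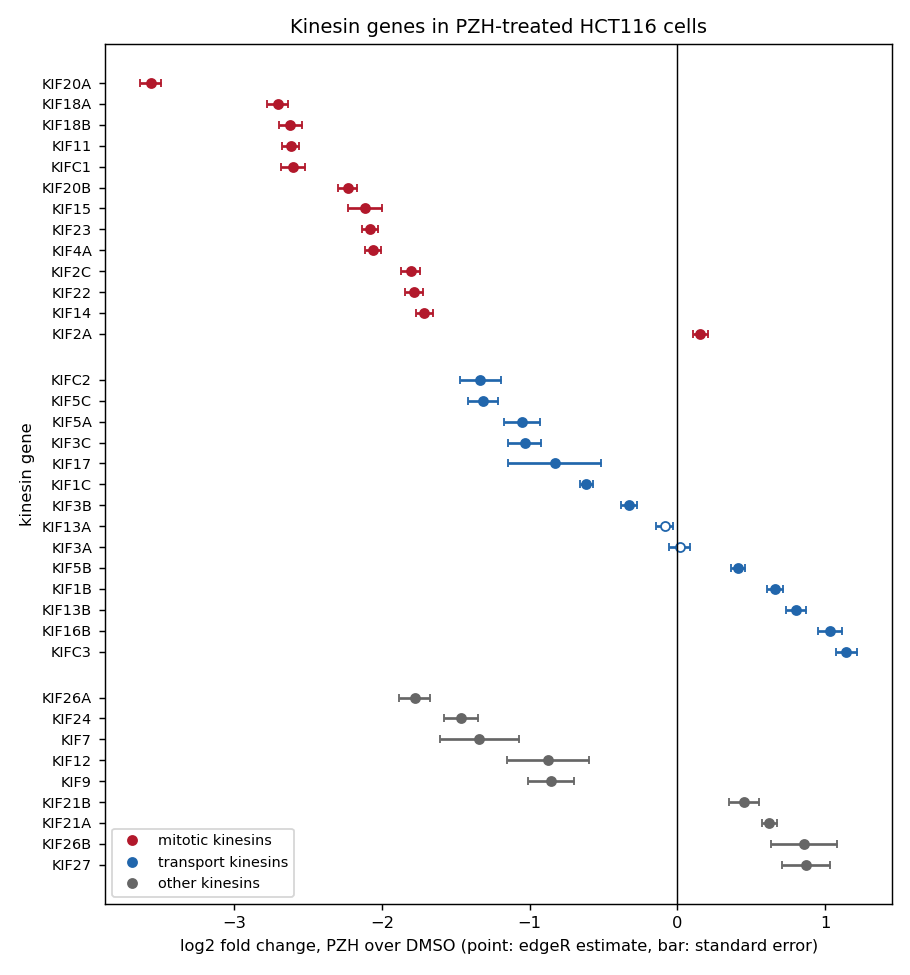
log2 fold change of PZH over DMSO (x axis) for the 36 tested kinesin genes, with bars for the standard error and open circles for genes that did not pass the test. The 12 mitotic kinesins at the top lie between -3.57 and -1.71, whereas transport and other kinesins spread to both sides of 0.

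Motors of cytokinesis showed the steepest and the shallowest fall among the 12. KIF20A (MKLP2), which brings the chromosomal passenger complex to the central spindle, stood at 159, 159, 161 and 165 CPM in DMSO replicates 1 to 4 and at 15.5, 14.9, 12.01 and 11.8 CPM in PZH replicates 1 to 4. The lowest DMSO library was about an order of magnitude above every PZH library. The fall was 11.8-fold (log2 fold change -3.57 ± 0.068 SE, edgeR adjusted p = 6.91e-22). KIF23 (MKLP1), the motor subunit of centralspindlin, stood at 151, 142, 154 and 142 CPM in DMSO and at 35.7, 37.4, 32.2 and 34.2 CPM in PZH. That was a 4.23-fold fall (log2 fold change -2.08 ± 0.054, edgeR adjusted p = 1.13e-19). RACGAP1, the other subunit of centralspindlin, fell by nearly the same factor, 4.12-fold, with a mean and SD over 4 libraries of 199 ± 6.02 CPM in DMSO and 48.2 ± 4.53 CPM in PZH. KIF20B, a further motor of late cytokinesis, stood at 76.1, 71.7, 73.1 and 70.9 CPM in DMSO and at 15.1, 14.6, 17.3 and 15.1 CPM in PZH, 4.70-fold lower. KIF14, which recruits citron kinase to the midbody, went from 68.8 ± 0.579 to 21.0 ± 1.35 CPM, the smallest of the 12 falls at 3.28-fold.

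Motors that set up the bipolar spindle fell as well, KIF11 and KIFC1 by the larger factors and KIF15 by a smaller one. KIF11 (Eg5), which pushes spindle poles apart and is a target of antimitotic drugs, stood at 116, 116, 114 and 112 CPM in DMSO and at 19.95, 19.8, 17.2 and 17.5 CPM in PZH. This was a 6.14-fold fall (log2 fold change -2.62 ± 0.057, edgeR adjusted p = 6.66e-21). KIFC1 (HSET), which pulls in the opposite direction and gathers poles, stood at 109, 107, 109 and 109.6 CPM in DMSO and at 20.6, 20.8, 13.9 and 16.1 CPM in PZH. Although they oppose each other on the spindle, both motors lost nearly the same share of their transcript, with KIFC1 6.08-fold lower (log2 fold change -2.60 ± 0.081). KIF15, which can stand in for KIF11, fell 4.34-fold from 37.6 ± 2.06 to 8.67 ± 2.22 CPM, and its lowest PZH library, replicate 3, stood at 5.61 CPM against 8.59 to 10.7 in the other PZH libraries.

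Motors that align chromosomes and trim microtubule ends were lower too. KIF18A, which damps chromosome movements at the metaphase plate, stood at 80.9, 80.5, 78.7 and 74.7 CPM in DMSO and at 13.6, 13.0, 10.6 and 10.9 CPM in PZH, a 6.52-fold fall. Its relative KIF18B, which shortens astral microtubules, stood at 61.8, 58.0, 63.7 and 58.1 CPM in DMSO and at 10.1, 10.6, 8.14 and 10.5 CPM in PZH, a 6.14-fold fall. The pair thus fell by similar factors. The chromosome-arm motor KIF4A stood at 102, 105, 103 and 105 CPM in DMSO and at 24.4, 26.6, 25.2 and 23.3 CPM in PZH, 4.17-fold lower. Chromokinesin KIF22 (Kid) went from 142 ± 3.31 to 41.2 ± 4.56 CPM and the centromere depolymerase KIF2C (MCAK) from 138 ± 2.43 to 39.6 ± 5.34 CPM, falls of 3.44-fold and 3.49-fold. CENPE, a kinetochore kinesin whose symbol lies outside the naming rule, fell 4.28-fold from 53.8 ± 1.74 to 12.5 ± 1.35 CPM, within the range of the 12.

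KIF2A was the exception in the mitotic group. It is a close relative of KIF2C that acts at spindle poles and also trims microtubules in cells that do not divide. It stood at 64.4, 61.4, 64.1 and 64.6 CPM in DMSO and at 73.1, 68.4, 65.6 and 76.3 CPM in PZH. The groups did not overlap, but the gap between DMSO replicate 4 and PZH replicate 3 was about 1 CPM. The rise was 1.11-fold (log2 fold change 0.16 ± 0.053, edgeR adjusted p = 0.00991), and 39.3% of genes tested were called higher. With upper quartile factors the call was lost (adjusted p = 0.148), and without scaling factors the sign turned (log2 fold change -0.10, adjusted p = 0.0896). KIF4B, an intronless copy of KIF4A, did not pass the low-count filter, with 53 counts summed over DMSO and 15 over PZH. Reads of 2 genes so alike may be split between them, so the value of KIF4B is uncertain.

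The fall of the mitotic kinesins was seen with either pair of PZH libraries. PZH libraries were less alike than DMSO libraries over all genes (chi-square per degree of freedom 4.03 to 12.3 against 2.39 to 2.81). Compared with all DMSO libraries, PZH replicates 1 and 2 alone gave 13 mitotic kinesins lower, with KIF4B now tested, and 1 higher, and replicates 3 and 4 alone 12 lower and 1 higher. Some members differed in level between the pairs. Of the 13 mitotic kinesins tested on all libraries, 6 stood lower in both PZH replicates 3 and 4 than in replicates 1 and 2. By the same measure 0 stood higher, and the cause was not tested. The share of all genes tested that split this way was not counted, so nothing particular to mitotic kinesins is read from it.

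**Figure D3:**
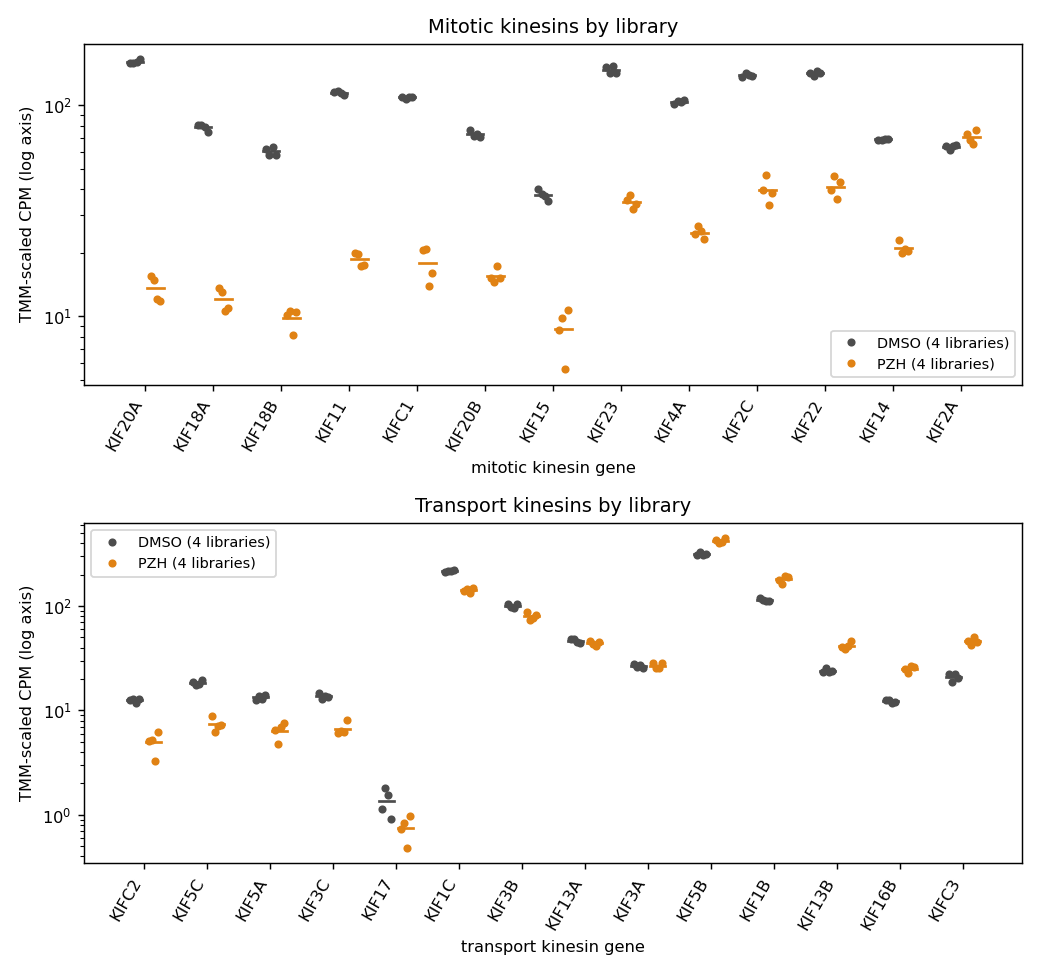
TMM-scaled CPM on a log axis of each tested mitotic (top) and transport kinesin (bottom), with 1 point per library and a line at the group mean. Every mitotic kinesin except KIF2A has its 4 PZH points well below its 4 DMSO points, with PZH means from 8.67 CPM for KIF15 to 41.2 CPM for KIF22, while the transport kinesins move less and in both directions.

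Transport kinesins divided. Of 15 in the table, 14 were tested, of which 5 rose, 7 fell and 2 did not pass. These shares were near those of all genes tested, 39.3% higher and 40.9% lower. Their median log2 fold change was -0.21, and 0 of them fell 3-fold. At least 2-fold rises were seen in 2 of the 14, against 15.8% of genes tested, and at least 2-fold falls in 4, against 18.9%. Groups did not overlap for 5 that were higher, where 36.6% of genes tested were, and for 6 that were lower.

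Conventional kinesin, the KIF5 heavy chains with their light chains, showed opposite directions among its 3 heavy chain genes. KIF5B, the heavy chain found in nearly all cell types, stood at 310.3, 329, 307 and 315 CPM in DMSO and at 426, 399, 407 and 447 CPM in PZH. It rose 1.33-fold (log2 fold change 0.41 ± 0.049, edgeR adjusted p = 6.23e-08), and every PZH library stood above every DMSO library. KIF5C, best known from neurons, stood at 18.7, 17.3, 17.9 and 19.4 CPM in DMSO and at 8.76, 6.25, 7.12 and 7.32 CPM in PZH, a 2.49-fold fall. The other neuronal heavy chain, KIF5A, stood at 12.5, 13.8, 12.8 and 14.0 CPM in DMSO and at 6.50, 4.72, 6.88 and 7.56 CPM in PZH, 2.08-fold lower. Both neuronal heavy chains therefore fell where the common one rose. Summed over 14 neuron markers, levels were 25.4 to 28.7 CPM without scaling factors in DMSO and 115 to 131 in PZH. Of these markers 5 were tested, with 3 called higher and 0 lower, beside 39.3% and 40.9% of genes tested. STMN2 and GAP43 had 0 counts throughout. SNAP25, not tested, had 44 counts in DMSO and 3 in PZH. The largest was MAP2, with 10.7 ± 0.856 CPM in DMSO against 115 ± 5.82 CPM in PZH. Without MAP2, the other 13 markers summed to 13.7 to 15.9 CPM in DMSO and 13.6 to 16.04 CPM in PZH. The part of these markers in the KIF5 results was not tested.

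Heterotrimeric kinesin-2, which builds cilia and carries cargo, joins KIF3A with KIF3B or KIF3C and the adaptor KIFAP3. KIF3B and KIF3C fell, KIFAP3 rose and KIF3A did not pass the test. KIF3A stood at 27.9, 25.9, 27.3 and 25.5 CPM in DMSO and at 28.4, 25.3, 25.5 and 28.5 CPM in PZH, so the groups overlapped (log2 fold change 0.01 ± 0.069, edgeR adjusted p = 0.848). KIF3B stood at 105, 98.7, 96.2 and 104 CPM in DMSO and at 87.3, 74.2, 77.2 and 83.0 CPM in PZH, a fall of 1.26-fold. KIF3C, the partner best known from neurons, stood at 14.6, 12.8, 13.8 and 13.4 CPM in DMSO and at 6.05, 6.37, 6.21 and 8.05 CPM in PZH, a fall of 2.05-fold. Of the alternative partners, KIF3C thus had the larger fold change. KIFAP3 rose 1.97-fold from 19.7 ± 1.16 to 38.8 ± 2.60 CPM, and is named here after its value was seen. Without scaling factors KIF3A was called lower (log2 fold change -0.24, adjusted p = 0.0049). KIF17, the homodimeric kinesin-2, was close to the detection limit, at 1.14, 1.80, 1.53 and 0.907 CPM in DMSO and 0.735, 0.826, 0.483 and 0.968 CPM in PZH. Its groups overlapped, and its call (log2 fold change -0.83 ± 0.32, edgeR adjusted p = 0.0202) was lost without DMSO replicate 2 (0.0876), without DMSO replicate 3 (0.0545) or without PZH replicate 3 (0.0775).

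Kinesin-3 motors, which carry vesicles and endosomes, moved in both directions. KIF1B, a carrier of mitochondria and synaptic vesicle precursors, stood at 120.2, 114, 112 and 112 CPM in DMSO and at 179.6, 163, 193 and 188 CPM in PZH. It rose 1.58-fold (log2 fold change 0.66 ± 0.052, edgeR adjusted p = 5.82e-11). KIF1C, a fast carrier of dense core vesicles and integrins, went the other way, from 213, 219, 217 and 223 CPM in DMSO to 139, 147, 133 and 149 CPM in PZH. It fell 1.53-fold (log2 fold change -0.62 ± 0.046, edgeR adjusted p = 2.34e-11), so these 2 relatives moved by like factors in opposite directions. The early endosome motor KIF16B stood at 12.5, 12.5, 11.7 and 12.2 CPM in DMSO and at 24.8, 22.6, 26.5 and 26.1 CPM in PZH, a rise of 2.04-fold. KIF13B stood at 23.6, 25.7, 23.2 and 23.8 CPM in DMSO and at 40.3, 39.0, 41.5 and 46.8 CPM in PZH, 1.74-fold higher. Its closest relative KIF13A, a carrier of recycling endosomes, stood at 48.3, 48.9, 45.2 and 44.3 CPM in DMSO and at 46.6, 43.2, 41.2 and 44.9 CPM in PZH, with overlapping groups (log2 fold change -0.08 ± 0.058, edgeR adjusted p = 0.184). Upper quartile factors (-0.16, adjusted p = 0.0166) and no scaling factors (-0.34, adjusted p = 3.8e-05) called KIF13A lower. KIF1A, the neuronal member, was not tested, with 20 counts in DMSO and 18 in PZH.

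The C-terminal motors outside mitosis parted as well. KIFC3, a minus-end motor of epithelial cells that serves apical transport and junctions, stood at 22.4, 18.8, 22.2 and 20.6 CPM in DMSO and at 46.2, 42.8, 50.9 and 45.7 CPM in PZH. Its rise of 2.21-fold (log2 fold change 1.14 ± 0.071, edgeR adjusted p = 9.18e-13) was the steepest among the 36 tested kinesins. KIFC2 stood at 12.5, 12.9, 11.9 and 12.8 CPM in DMSO and at 5.14, 5.19, 3.26 and 6.23 CPM in PZH, a fall of 2.52-fold. In GENCODE release 29, 21.7% of the exon bases of KIFC2 are shared with FOXH1 on the opposite strand. Whether counting used strand is unknown here, so part of the KIFC2 count may belong to FOXH1.

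In the mixed group, 4 of 9 tested genes rose and 5 fell, out of 11 in the table. Among all genes tested, 39.3% were higher and 40.9% lower. KIF26A, which lacks motor activity and restrains growth factor signalling, stood at 18.2, 17.1, 20.8 and 20.1 CPM in DMSO and at 6.22, 5.13, 5.37 and 5.44 CPM in PZH. Its fall of 3.43-fold (log2 fold change -1.78 ± 0.11, edgeR adjusted p = 4.23e-13) was within the range of the mitotic kinesins. KIF24, a centriole motor that limits cilium growth and the only member of this group with CHR letters in its window, stood at 13.6, 14.6, 15.02 and 14.4 CPM in DMSO and at 4.80, 6.37, 4.77 and 4.90 CPM in PZH, 2.76-fold lower. KIF21A, which slows microtubule growth at the cell cortex, stood at 58.2, 55.5, 58.7 and 57.1 CPM in DMSO and at 90.5, 81.3, 87.1 and 94.4 CPM in PZH, a rise of 1.54-fold. Both relatives in this pair were higher in PZH, since KIF21B stood at 11.3, 14.0, 13.1 and 12.6 CPM in DMSO and at 18.3, 20.3, 15.02 and 15.9 CPM in PZH. Its rise was 1.36-fold, a call that was lost without scaling factors (adjusted p = 0.103).

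The remaining kinesins of the mixed group were low in every library and moved in both directions. KIF7, which organises the cilium tip for Hedgehog signalling, fell 2.53-fold from 2.18 ± 0.426 to 0.854 ± 0.134 CPM. Its closest relative KIF27 stood at 3.65, 4.11, 2.51 and 3.01 CPM in DMSO and at 6.50, 6.08, 5.31 and 6.41 CPM in PZH. KIF27 thus rose where KIF7 fell, by 1.83-fold and without overlap. KIF9, a motor of motile cilia, stood at 7.66, 7.28, 6.14 and 6.16 CPM in DMSO and at 4.41, 3.19, 3.20 and 4.23 CPM in PZH, 1.81-fold lower. The antisense gene KIF9-AS1, which shares 13.0% of the exon bases of KIF9, was called higher (log2 fold change 1.04 ± 0.147, edgeR adjusted p = 1.01e-06), so without knowledge of strand the size of the fall of KIF9 is uncertain. KIF12 fell 1.83-fold to 1.01 ± 0.342 CPM. KIF26B, the relative of KIF26A, stood at 1.37, 1.47, 1.72 and 1.67 CPM in DMSO and at 2.71, 2.12, 3.62 and 2.84 CPM in PZH, a rise of 1.81-fold. With PZH replicates 3 and 4 alone the call of KIF12 was lost (adjusted p = 0.0709). KIF6 was seen with 5 counts in DMSO and 0 in PZH, and KIF19 with 11 and 0, so neither was tested. Summed over 8 markers of ciliated cells, levels were 10.4 to 11.003 CPM without scaling factors in DMSO and 2.44 to 4.19 in PZH. Of these markers 4 were tested, with 1 called higher and 3 lower, beside 39.3% and 40.9% of genes tested. TEKT1 stood at 0 in all libraries. The part of these markers in the results for these kinesins was not tested.

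The make-up of the kinesin pool changed. Kinesin transcripts took 0.258 ± 0.00243% of all counts in DMSO and 0.137 ± 0.00635% in PZH (mean ± SD, n = 4 per group). Mitotic kinesins held 55.1 ± 0.495% of kinesin counts in DMSO and 22.0 ± 1.48% in PZH. The transport kinesins held 39.8 ± 0.560% and 69.2 ± 1.45%, and the mixed group 5.07 ± 0.105% and 8.77 ± 0.0950%. By library, the mitotic share was 55.2, 54.6, 55.7 and 54.8% in DMSO and 22.3, 24.0, 20.6 and 21.2% in PZH, with no overlap. These shares are of counts and so favour long transcripts. A gain in share is not by itself a gain in level. Without scaling factors, the transport kinesins summed to 1008 to 1040 CPM in DMSO and 881 to 993 CPM in PZH. The mixed group summed to 129 to 134 CPM in DMSO and 113 to 128 CPM in PZH. TMM factors were 1.09 to 1.10 in DMSO and 0.896 to 0.949 in PZH. With these factors the mean sum of either group was higher in PZH than in DMSO. The direction of these sums thus depended on the scaling, and no fall or rise of the pools is read from them.

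**Figure D4:**
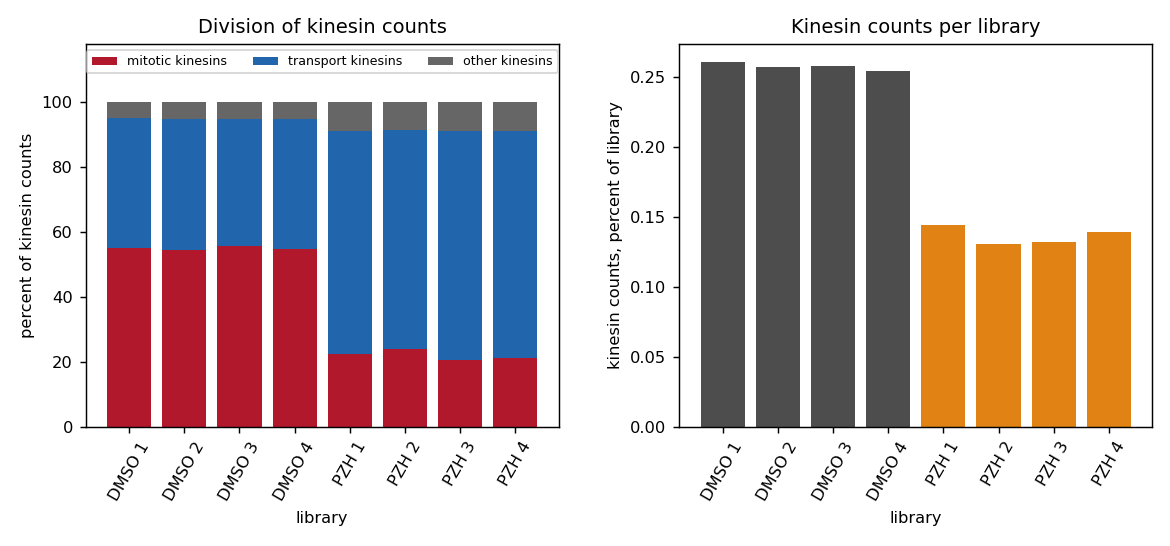
Left, percent of all kinesin counts held by mitotic, transport and other kinesins in each of the 8 libraries. Right, kinesin counts as percent of all counts in the same libraries. The mitotic share is 54.6 to 55.7% in DMSO and 20.6 to 24.0% in PZH.

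Levels of different genes were compared per kilobase of merged exons (GENCODE release 29). In DMSO, KIF5B led with 53.7 ± 1.67 CPM per kb, then KIF22 with 50.6 ± 1.19, KIF20A with 50.3 ± 0.809, KIF2C with 42.8 ± 0.750 and KIFC1 with 40.2 ± 0.440. KIF22 and KIF20A did not differ beyond their spread. Of the first 6 places, 5 were thus held by mitotic kinesins, the sixth gene being KIF23 with 39.1 ± 1.61 CPM per kb. In PZH, KIF5B led with 71.4 ± 3.64 CPM per kb, far above KIF2A with 19.5 ± 1.31, KIF1C with 18.0 ± 0.897, KIF22 with 14.7 ± 1.63 and KIF21A with 13.3 ± 0.837. The ranges of mean ± SD of KIF2A and KIF1C overlapped. KIF20A moved from rank 3 to rank 15 of 40 and KIF11 from rank 9 to rank 18, while KIFC3 moved up from rank 20 to rank 9.

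Spindle partners of the mitotic kinesins were mostly lower. Of 13, 12 fell, where 40.9% of genes tested did, 0 rose and NUMA1 did not pass (log2 fold change -0.06). At least 2-fold falls were seen in 11 of them, against 18.9% of genes tested. The median log2 fold change of the 13 partners was -1.79. The mitotic kinase PLK1 fell 5.75-fold from 200.0 ± 4.37 to 34.8 ± 3.15 CPM. INCENP and CDCA8 of the chromosomal passenger complex, which KIF20A carries, fell 4.25-fold and 4.73-fold.

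Light chains and cargo adaptors moved in both directions, with 13 of 23 higher, 9 lower and KLC4 not passing, beside 39.3% higher and 40.9% lower among genes tested. Without scaling factors 11 were higher and 10 lower, beside 4476 higher and 7670 lower among all 15006 genes tested. Their median log2 fold change was 0.36. SPAG9 (JIP4), a scaffold that links kinesin-1 to lysosomes and endosomes, rose 2.59-fold from 138 ± 3.09 to 357 ± 33.6 CPM. The light chain KLC1 rose 2.21-fold from 26.5 ± 0.958 to 58.5 ± 1.91 CPM. MAPK8IP3 (JIP3), an axonal adaptor of kinesin-1, rose 2.21-fold. Among those that fell, FEZ1 and MAPK8IP2 fell 2.27-fold and 1.98-fold, and the other 7, HOOK3, MAPK8IP1, RHOT2, MADD, KIF1BP, RHOT1 and KTN1, had log2 fold changes between -0.39 and -0.12.

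Dynein, the motor that moves cargo toward the minus end of microtubules, was read for comparison. Of 21 tested genes of cytoplasmic dynein and dynactin, 13 rose, 5 fell and 3 did not pass, beside 39.3% higher and 40.9% lower among genes tested. Their median log2 fold change was 0.49. The regulator NDEL1 rose 3.87-fold from 30.8 ± 0.859 to 119 ± 7.76 CPM and the intermediate chain DYNC1I2 rose 2.88-fold from 57.7 ± 1.45 to 166 ± 8.56 CPM. DYNLRB1 and DYNC1LI1 rose 1.77-fold and 1.85-fold. DYNLT1, DCTN1, ACTR1A, DYNLL2 and DCTN3 fell, by 1.53-fold at most. The heavy chain DYNC1H1 did not pass, at 577 ± 5.62 and 605 ± 37.1 CPM. Without scaling factors 11 of these genes were higher and 8 lower, beside 4476 higher and 7670 lower among all 15006 genes tested.

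**Figure D5:**
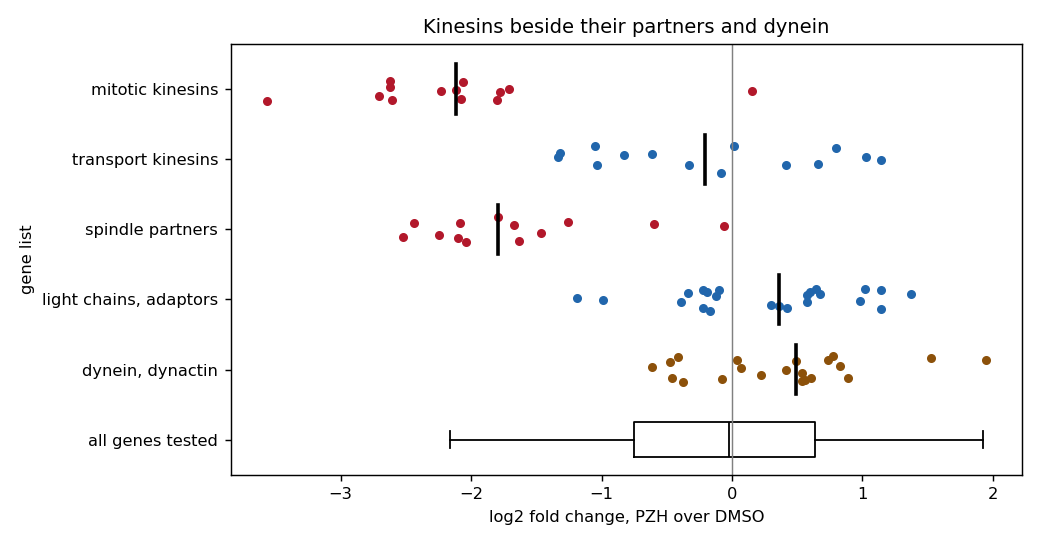
log2 fold change of PZH over DMSO (x axis), 1 point per tested gene, for mitotic and transport kinesins, spindle partners, light chains with adaptors, and dynein with dynactin, with a bar at each median. The box shows all 15006 genes tested, with whiskers from the 5th to the 95th percentile. Medians run from -2.12 for mitotic kinesins to 0.49 for dynein and dynactin.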

How the data were processed

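RNA-seq of poly(A) RNA covered 8 samples of HCT116 cells. Counts per gene symbol, whole and not normalized, are what the authors deposited, and 0 columns belonged to no sample. Tools in the submitters' processing notes, listed without roles, are StringTie 1.3.3b, DESeq 1.28.0, HISAT2 2.1.0 and FastQC 0.11.5. Build, annotation and strand setting were not given in the sources used. Genes were kept by filterByExpr (minimum count 10, minimum total count 15), scaled with TMM and tested with edgeR 4.0.16 (glmQLFit, glmQLFTest, group as the only term, two-sided, Benjamini-Hochberg over 15006 genes, threshold 0.05) in R 4.3.3, with the script checked on simulated data. The simulated data held few changed genes, unlike the real data, so they did not check the scaling. The standard error of a log2 fold change was taken as its size over the root of F. No list was tested as a set. No 2 replicates of a group agreed within counting noise, the chi-square being at least 2.39 per degree of freedom. Floors of 3 counts cover counting error only.

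Members, roles and gene lists were chosen with earlier results of these data known. Any kinesin could be named. Values by library were given for the called members with the smallest p (8 mitotic, 8 transport, 4 others), those against their group's direction and those not called. KIF5A, KIF3B and KIF17 were also given by library, outside that choice. Partner lists gave up to 4 called genes with the smallest p, those against the majority, and CENPE. A gene that this rule names is not reported here. KIF1BP was matched as KIFBP through RefSeq synonyms. KIF2B and KIF25, also on the lists, were not analysed here, and protein sequences were not used here. Lengths are merged exons of GENCODE release 29 basic transcripts (GRCh38). Alternatives were other scaling factors, other filters, DESeq2 1.42.0, limma-voom (limma 3.58.1), a replicate block, an adjusted p of 0.01, leaving out each library, PZH pairs of libraries, and KIF2A outside the mitotic group.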

Additional observations from a re-analysis of the deposited data

Results flagged for a closer look

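In 78 groups of 4 values (36 kinesins and 3 shares of kinesin counts, in each group of libraries), 3 held a value far from the other 3, and chance gives about 1 in 20. KIF2A in DMSO replicate 2 stood at 61.4 CPM, below 64.1 to 64.6 CPM in the other DMSO libraries. KIF3C in PZH replicate 4 stood at 8.05 CPM, above 6.05 to 6.37 CPM in the others. KIF24 in PZH replicate 2 stood at 6.37 CPM, above 4.77 to 4.90 CPM in the others. Each of these genes kept its direction and its call on leaving out any 1 library.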

How the results depend on the processing

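Of 647 values of single kinesins under alternatives, 631 kept their direction and their side of the threshold. With no scaling factors all genes moved by a median of -0.26 (log2), and list medians became -2.38 for mitotic, -0.46 for transport and -1.11 for other kinesins. Then 36.9% of calls were higher, against 49.0% in the main comparison (4476 higher and 7670 lower), 0 mitotic kinesins were higher, as with upper quartile factors, and 8 dynein and dynactin genes were lower. KIF2A turned to -0.10, and KIF3A to -0.24, or to -0.059 with upper quartile factors. KIF3A ran from -0.011 to 0.05 on leaving out 1 library. The transport median was -0.10 with no low-count filter and -0.083 with a CPM of at least 1 in 4 libraries, since fewer or more genes are tested there. With PZH replicates 1 and 2 only the mitotic median was -2.01, and with replicates 3 and 4 only 4 adaptors were lower. Leaving out each library gave 12 to 13 mitotic kinesins lower and a mitotic median of -2.14 to -2.05. Taking KIF2A out of the mitotic group left 12 lower, a count that could not change because KIF2A was called higher. For shifts other than those named, the cause was not tested. Genes under about 1 CPM were limited by depth.

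Same-numbered DMSO and PZH libraries had deviations that correlated at 0.0063 to 0.0330, so the numbers were not taken to pair them, although each DMSO library correlated best with its own number. With the replicate number as a block, 12 mitotic kinesins were lower and 1 higher, 7 transport kinesins lower and 5 higher, and 5889 genes higher and 6125 lower.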
